A study of Mus musculus with 11 samples.

Results

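Gstm6, a Mu-class glutathione transferase gene, was counted in every p53-/- embryo brain of the series and at a far lower level in the p53+/+ brains, while the 5 other measured genes of its family did not share that pattern. Few of all tested genes separated the p53 genotypes in full, so its absence in 5 genes says little about them. The 6 genes described here are Gstm1, Gstm2, Gstm4, Gstm5, Gstm6 and Gstm7, found by symbol among the 27179 genes with counts. Gstm6 was picked on its CPM values, which were higher in both p53-/- groups than in the p53+/+ group, so its differences from the p53+/+ group are a description and carry no test. The 5 relatives were added for their sequence likeness to Gstm6. Gstm3, the remaining gene of the cluster, had 0 to 2 counts in each library and is described only where its sequence matters.

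The tissue was the embryonic day 9.5 brain of C57BL/6 mice, taken as far back as the otic vesicle, the forerunner of the inner ear, and each library came from 1 embryo. There were 4 affected females with the genotype p53-/- Bim+/-, 4 control males with the genotype p53-/- Bim+/- and 3 control females with the genotype p53+/+ Bim+/-. Every embryo thus carried a heterozygous mutation of Bcl2l11, the gene of the pro-apoptotic protein Bim, and the mice came from crosses between single mutant strains. What affected the females is not stated in the labels, which give no litter or batch either, so p-values measure the spread between these embryos. Control males differed from control females in sex as well as in p53. Affected females differed from control males in sex as well as in being affected. Affected females differed from control females in p53 as well as in being affected. Within each of these contrasts the differences cannot be told apart.

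Totals ran from 8211942 to 11218682 counts per library. Ccng1, a known p53 target gene, stood at 21.8 to 24.5 CPM (the share of a library's counts that a gene takes, put on one scale for all libraries with edgeR's TMM factors) in affected females, 27.5 to 33.5 CPM in control males and 74.7 to 93.8 CPM in control females, which separated the p53 genotypes. Trp53 itself did not separate them, at 107 to 139 CPM, 112 to 132 CPM and 105 to 125 CPM in the same groups; whether the deleted part of the gene is covered by these whole-gene counts is not stated in the labels. Xist, the RNA that coats the inactive X chromosome of females, stood at 1435 to 2167 CPM in affected females and 8.72 to 13.2 CPM in control males, against 4391 to 5959 CPM in control females; both female groups were far above the males, and the affected females were below the control females without overlap. Bcl2l11 stood at 38.2 to 47.3 CPM in affected females, 36.0 to 47.7 CPM in control males and 71.0 to 82.1 CPM in control females, although the labels give all 3 groups the same Bim genotype. The neural progenitor genes Sox2, Pax6 and Otx2 were present in all 11 libraries, with Sox2 at 149 to 162 CPM in affected females, 133 to 169 CPM in control males and 99.3 to 142 CPM in control females. Control female 1 differed from both other control females in a low sum of erythroid markers, at 502 CPM against 4121 and 3926 CPM in control females 2 and 3, and in a low sum of early neuron markers. Control male 4 differed more from each other control male (chi-square per degree of freedom 14.3 to 31.6) than these did among themselves (6.77 to 11.6). Values without control female 1 and control male 4 together, an omission added after the data were seen, are given with some results. They do not isolate control female 1.

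Glutathione transferases are enzymes that join the tripeptide glutathione to reactive, electron-poor molecules, which makes these more soluble and ready for export from the cell. The cytosolic forms act as dimers and are sorted into classes by sequence; the Mu class is encoded by a compact cluster of genes that arose by duplication. Many glutathione transferase genes are known targets of NRF2, the transcription factor that responds to oxidants and electrophiles. Genes of such a cluster resemble each other so closely that sequence reads from one can be taken for another, so the sequences are shown first.

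The 7 genes of the cluster lie on chromosome 3 between bases 107895854 and 108045179 of the mouse build mm10 (GRCm38.p6 in the RefSeq gene table), a span of 149 kb. Gstm5 lies at 107895854 to 107898685 and is the only one on the plus strand. The others follow on the minus strand, with Gstm7 at 107926334 to 107931877, Gstm6 at 107938847 to 107953641, Gstm3 at 107963696 to 107969174, Gstm2 at 107981702 to 107986420, Gstm1 at 108012250 to 108017973 and Gstm4 at 108030571 to 108045179. Gstm6 and Gstm7 are separated by 6.97 kb, and Gstm6 and Gstm3 by 10.1 kb. Gstm5 overlaps the non-coding gene 4933431E20Rik and Gstm4 overlaps Gm36498 and Gm25592; no source used here gives the strand setting, so reads of such partners may be mixed.

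The start of the coding sequence shows how alike the genes are. In the 60 coding bases printed here, from GENCODE vM21 transcripts, the first line is Gstm6 and the capitals in the other lines mark bases unlike Gstm6. Gstm5 has extra codons at its start, so its window runs from coding base 10 to coding base 69.

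Gstm6: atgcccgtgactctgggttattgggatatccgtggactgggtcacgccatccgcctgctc
Gstm2: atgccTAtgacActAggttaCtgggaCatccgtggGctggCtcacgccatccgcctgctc
Gstm7: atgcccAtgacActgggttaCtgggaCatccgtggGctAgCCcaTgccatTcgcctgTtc
Gstm4: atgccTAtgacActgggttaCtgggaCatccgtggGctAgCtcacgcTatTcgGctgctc
Gstm3: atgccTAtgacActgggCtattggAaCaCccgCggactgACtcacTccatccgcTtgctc
Gstm5: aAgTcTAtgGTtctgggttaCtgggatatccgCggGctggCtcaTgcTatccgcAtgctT
Gstm1: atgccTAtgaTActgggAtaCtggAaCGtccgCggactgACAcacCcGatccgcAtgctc

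Gstm2 differed from Gstm6 at 8 of these bases, Gstm4 and Gstm7 at 11 each, Gstm3 at 12, Gstm5 at 14 and Gstm1 at 16. Over the whole coding sequence Gstm2 was the closest of the relatives, with 86.4% of aligned bases identical to Gstm6, and Gstm3 had 85.1%. Gstm1 and Gstm7 each had 82.6%, Gstm4 had 81.3% and Gstm5 was the most distant with 72.7%.

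Exact matching gave the stretches that no read within them could tell apart. Reads placed with mismatches were not examined, so more reads than these could be confused. No stretch of 50 bases of a Gstm6 transcript occurred in Gstm1, Gstm2, Gstm4, Gstm5 or Gstm7, and the longest identical run with Gstm6 was 41 bases in Gstm4, 38 in Gstm2, 33 in Gstm1, 32 in Gstm7 and 16 in Gstm5. Of the 2176 stretches of 50 bases in Gstm6 transcripts, 94.0% occurred in no other annotated gene, and of the 2362 stretches of 100 bases 98.9% did. Within the cluster the exception was Gstm3, which shared 76 of the stretches of 50 bases, or 3.49%; outside it, Gm12494 and Gm8834 shared some. The longest run common to Gstm6 and Gstm3 had 125 bases, all coding, spread over 3 exons and present in 3 of the 6 Gstm6 transcripts. Gstm3 itself had 6 counts over all 11 libraries, of which 3 were in affected females, 2 in control males and 1 in control females. Among the relatives, Gstm1 had the lowest share of unique stretches of 50 bases, at 81.1%, which rose to 94.1% at 100 bases. Gstm4 had 100% at both lengths and Gstm7 had 99.5% and 100%. No source used here gives how reads that match several genes were counted.

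**Figure D1:**
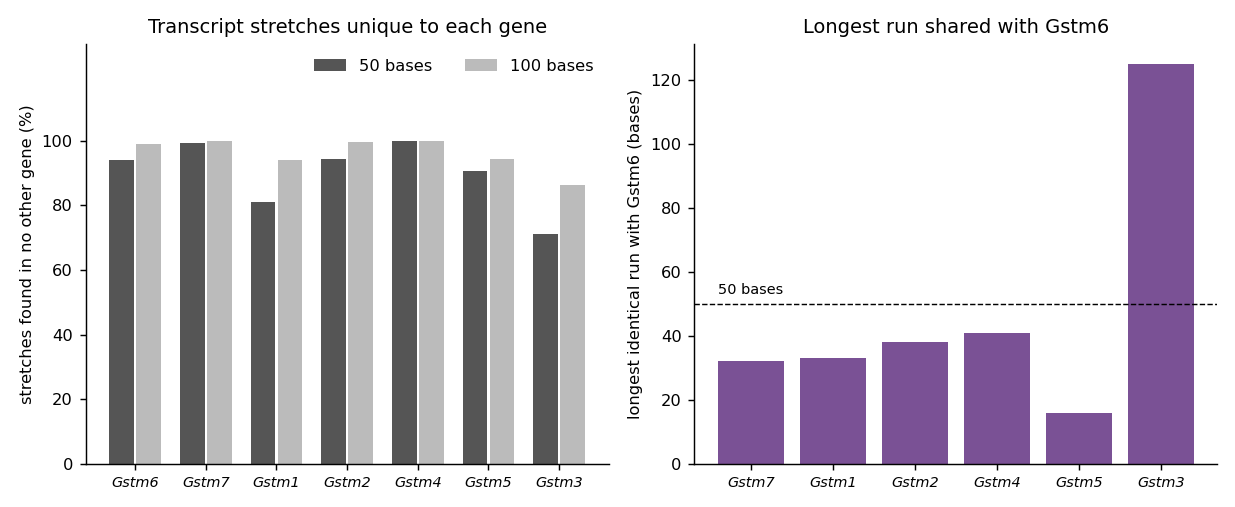
Left, the percent of 50-base (dark) and 100-base (light) stretches of each gene's GENCODE vM21 transcripts that occur in no other annotated gene; right, the longest identical run in bases shared with Gstm6, with a dashed line at 50 bases. Gstm3 alone crosses the line, with 125 bases, and the 5 relatives lie between 16 and 41 bases.

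Gstm6 had 52, 31, 65 and 50 counts in affected females 1 to 4 and 37, 39, 38 and 45 counts in control males 1 to 4, against 2, 7 and 5 counts in control females 1 to 3. All 8 p53-/- embryos lay above all 3 p53+/+ embryos, and the lowest p53-/- level was 4.29 times the highest p53+/+ level. In CPM these were 5.18, 3.18, 6.06 and 4.84 in affected females and 3.48, 4.03, 3.75 and 4.09 in control males, against 0.249, 0.742 and 0.464 in control females. Counting error alone gives 95% Poisson intervals of 0.242 to 7.22, 2.81 to 14.4 and 1.62 to 11.7 counts for control females 1 to 3, so the level in p53+/+ brains is known only roughly.

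The group means were 4.82 ± 1.20 CPM in affected females (SD, n = 4) and 3.84 ± 0.281 CPM in control males (SD, n = 4), against 0.485 ± 0.247 CPM in control females (SD, n = 3). The ratio of means to control females was 9.94 for affected females and 7.91 for control males. In the edgeR fit the log2 fold change against control females was 3.26 (SE 0.34) for affected females, 2.93 (SE 0.34) for control males and 3.09 (SE 0.32) for the mean of both p53-/- groups. Without control female 1 and control male 4 the values were 3.00, 2.63 and 2.82. The comparisons share the 3 control females, so these values are not independent of each other. In bulk tissue, fewer cells of a type and less RNA per cell cannot be told apart.

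**Figure D2:**
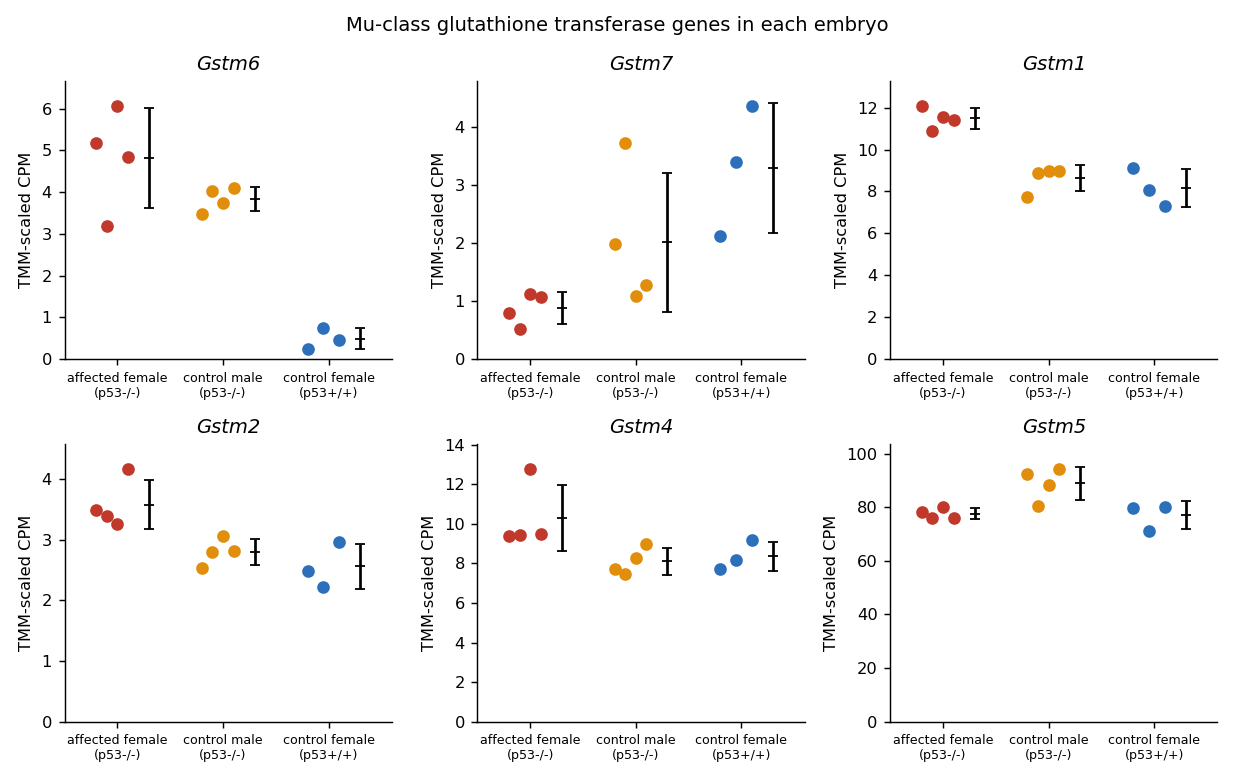
TMM-scaled CPM of the 6 genes in each embryo (points), with the mean ± SD of each group as a bar beside them; groups run from affected females on the left through control males to control females. The Gstm6 points of the 8 p53-/- embryos run from 3.18 to 6.06 CPM and those of the p53+/+ embryos from 0.249 to 0.742 CPM; no other panel separates the p53 genotypes in this way.

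The p53-/- groups were set against each other, a contrast that the choice of Gstm6 did not use. Gstm6 was 0.33 higher on the log2 scale in affected females than in control males (SE 0.22, 95% interval -0.13 to 0.79). It was not called in edgeR's quasi-likelihood fit, with a Benjamini-Hochberg adjusted p of 0.276 over all tested genes; a gene is called here when that p is below 0.05. Leaving out 1 library at a time, the value ran from 0.20 without affected female 3 to 0.48 without affected female 2, and it was called in neither. A two-sided exact permutation test over 70 splits of the 8 embryos gave p = 0.171. The lowest and the highest p53-/- values, 3.18 and 6.06 CPM, both came from affected females, so the control males lay within their range.

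The 5 relatives were read for the same pattern of levels. Levels in all 8 p53-/- embryos lay above all 3 p53+/+ embryos for 1.31% of tested genes and below them for 1.37%, and none of the 5 relatives was in either set. At shares this small, a count of 0 says little about the relatives. Gstm6 was in the first set, which follows from how it was picked, and its membership supports nothing. For the mean of the p53-/- groups against control females, 0.77% of tested genes were called higher and 2.39% lower; of the 5 relatives, 0 were called higher and 1, Gstm7, was called lower. At an unadjusted p under 0.05 one relative was higher in that contrast, Gstm1, whose log2 fold change was 0.29 (SE 0.12, edgeR adjusted p = 0.154); DESeq2 called 0 relatives higher.

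Gstm7, the gene next to Gstm6 on the same strand, was lower in the affected females. It had 8, 5, 12 and 11 counts in affected females 1 to 4, against 17, 32 and 47 counts in control females 1 to 3, and control males 1 to 4 had 21, 36, 11 and 14 counts. In CPM these were 0.798, 0.514, 1.12 and 1.07 in affected females and 1.97, 3.72, 1.08 and 1.27 in control males, against 2.12, 3.39 and 4.36 in control females. Every affected female lay below every control female, and the control males spread over both ranges.

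The means of Gstm7 were 0.874 ± 0.278 CPM in affected females (SD, n = 4) and 2.01 ± 1.20 CPM in control males (SD, n = 4), against 3.29 ± 1.12 CPM in control females (SD, n = 3). Against control females, Gstm7 fell by 1.91 on the log2 scale in affected females (SE 0.42, edgeR adjusted p = 0.00662), and it was called under all 18 alternative settings, with adjusted p from 0.00074 to 0.0406. Without control female 1 and control male 4 the log2 fold change was -2.12 (edgeR adjusted p = 0.00074). In control males the log2 fold change was -0.74 (SE 0.37, edgeR adjusted p = 0.819). For the p53-/- mean against control females it was -1.32 (SE 0.34, edgeR adjusted p = 0.0477), a call that held in 7 of 17 alternatives. It was lost on leaving out any 1 of affected females 1 to 4, control males 1, 3 and 4, or control females 2 and 3, with adjusted p between 0.0509 and 0.216, and with the replicate number as a block, at 0.101. Affected females set directly against control males gave -1.17 (SE 0.42, edgeR adjusted p = 0.0577) and an exact permutation p of 0.0571. That contrast passed the threshold in 6 of 18 alternatives, among them those without control male 3 (adjusted p = 0.0488), without control male 4 (0.0234) and without control female 1 (0.0455). Without control male 2 it was -0.71 (edgeR adjusted p = 0.211), and control males against control females then gave -1.21 (edgeR adjusted p = 0.162); without control female 3 control males against control females gave -0.48 (edgeR adjusted p = 0.909).

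Early neuron markers were low in affected females, as Gstm7 was, but the order of the embryos was not the same throughout. The summed level of the 10 listed markers, among them Tubb3, Dcx and Neurod1, was 94.1 to 125.5 CPM in affected females, 182 to 314 CPM in control males and 122 to 297 CPM in control females, and no marker of the list was at 0. Of these markers, 9 of 10 fell in affected females against control females and 8 of 10 fell against control males by the edgeR test. Of all tested genes, 15.0% were called lower against control females and 10.7% against control males. Control female 1 had a sum of 122 CPM, within the range of the affected females, and 2.12 CPM of Gstm7, above all 4 affected females and above control male 1, which had a sum of 196 CPM and 1.97 CPM of Gstm7. Control male 2 and control females 2 and 3 had both the highest marker sums, at 314, 264 and 297 CPM, and the highest Gstm7 levels, at 3.72, 3.39 and 4.36 CPM. The part of early neurons in the Gstm7 difference was not tested. Gstm6 did not follow the same order: control females 2 and 3, with high sums, had 0.742 and 0.464 CPM of Gstm6, and control female 1, with a sum of 122 CPM, had 0.249 CPM. Surface ectoderm markers ran the other way from the neuron markers, at 175 to 203 CPM in affected females, 105 to 142 CPM in control males and 93.2 to 160 CPM in control females, with 6 of 7 higher against control females and 5 of 7 higher against control males. Of all tested genes, 13.0% were called higher against control females and 9.51% against control males. The part of surface ectoderm in the results on affected females was not tested.

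**Figure D3:**
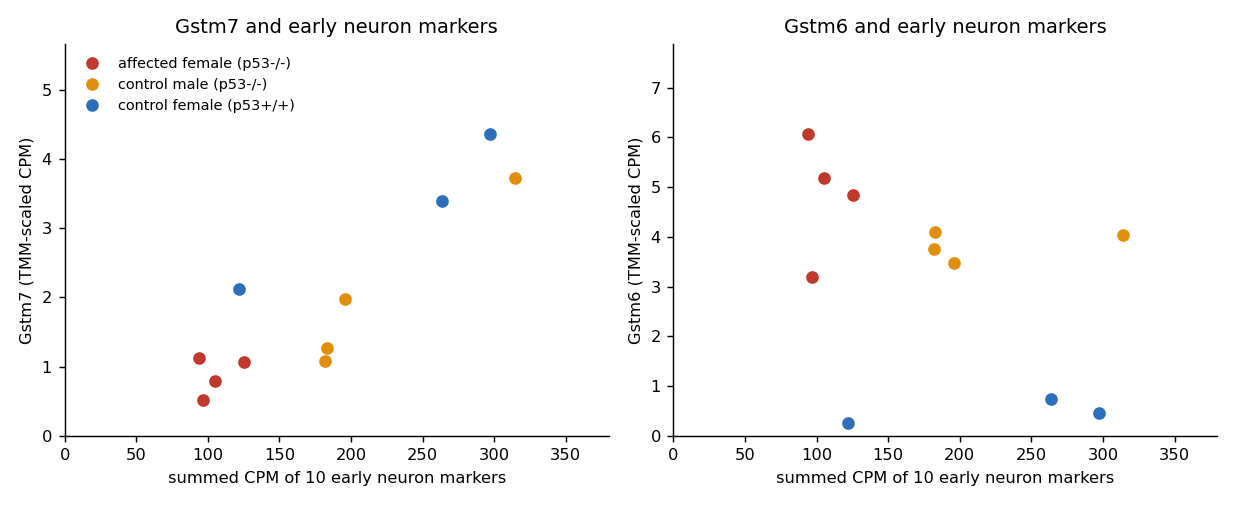
Gstm7 (left) and Gstm6 (right) in TMM-scaled CPM against the summed CPM of 10 early neuron markers, 1 point per embryo, coloured as affected female, control male or control female. The 3 embryos with marker sums of 264 to 314 CPM have the highest Gstm7 levels, 3.39 to 4.36 CPM, whereas the 3 control females are the lowest for Gstm6 at every marker sum.

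Gstm1, known as an abundant transferase of the liver, was higher in affected females than in both other groups. Its levels were 12.1, 10.9, 11.6 and 11.4 CPM in affected females 1 to 4 and 7.71, 8.89, 8.98 and 9.00 CPM in control males 1 to 4, against 9.10, 8.06 and 7.32 CPM in control females 1 to 3. Affected females did not overlap the other groups, which overlapped each other. The log2 fold change of affected females against control females was 0.50 (SE 0.14, edgeR adjusted p = 0.0165), and against control males it was 0.41 (SE 0.12, edgeR adjusted p = 0.0318). Control males against control females gave 0.09 (SE 0.14, edgeR adjusted p = 0.934). The first call was lost without control female 2 (adjusted p = 0.0579) or control female 3 (0.0849). The second was lost without affected female 1, 3 or 4 or control male 1, 2 or 3, with adjusted p from 0.0572 to 0.103.

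Gstm2, whose human counterpart detoxifies oxidised dopamine products, stood at 3.49, 3.39, 3.26 and 4.17 CPM in affected females and 2.54, 2.79, 3.06 and 2.82 CPM in control males, against 2.49, 2.23 and 2.97 CPM in control females. Affected females were above all other embryos, by a margin smaller than the range within the group. The log2 fold change was 0.47 (SE 0.21, edgeR adjusted p = 0.0935) for affected females against control females, 0.12 (SE 0.21, edgeR adjusted p = 0.944) for control males against control females and 0.35 (SE 0.19, edgeR adjusted p = 0.177) for affected females against control males, so none was called.

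Gstm4 stood at 9.37, 9.45, 12.8 and 9.49 CPM in affected females and 7.71, 7.44, 8.29 and 9.00 CPM in control males, against 7.73, 8.16 and 9.18 CPM in control females. The highest affected female, replicate 3, stood well above the other 3, which lay just above the highest embryos of the other groups. The log2 fold change was 0.29 (SE 0.16, edgeR adjusted p = 0.159) for affected females against control females and 0.34 (SE 0.14, edgeR adjusted p = 0.0955) for affected females against control males. Without affected female 3 these were 0.16 (edgeR adjusted p = 0.463) and 0.22 (edgeR adjusted p = 0.323), and without control female 1 and control male 4 the second was 0.40 and was called (edgeR adjusted p = 0.0426). For control males against control females it was -0.05 (SE 0.16, edgeR adjusted p = 0.972), and 0.030 without control female 3.

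Gstm5 was by far the most abundant of the 6 genes. It stood at 78.1, 75.9, 80.2 and 75.9 CPM in affected females and 92.5, 80.5, 88.3 and 94.2 CPM in control males, against 79.8, 71.0 and 80.2 CPM in control females. The range of the affected females lay within that of the control females, and the control males lay above both. The log2 fold change of affected females against control females was 0.01 (SE 0.08, edgeR adjusted p = 0.937), with a 95% interval of -0.17 to 0.19. Control males against control females gave 0.21 (SE 0.08, edgeR adjusted p = 0.773), and affected females against control males gave -0.20 (SE 0.08, edgeR adjusted p = 0.0731).

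Counted over the 5 relatives, affected females against control females gave 1 called higher, Gstm1, and 1 called lower, Gstm7, where 13.0% of all tested genes were called higher and 15.0% lower. Gstm2 was also higher there at an unadjusted p under 0.05. Affected females against control males gave 1 called higher, Gstm1, and 0 called lower, where the shares of all genes were 9.51% and 10.7%. At an unadjusted p under 0.05 Gstm4 was higher too, and Gstm5 and Gstm7 were lower. DESeq2 called Gstm1 higher and Gstm7 lower. Control males against control females gave 0 called by edgeR or by DESeq2, where edgeR called 0.0481% of all genes higher and 0.0963% lower; at an unadjusted p under 0.05 one relative, Gstm5, was higher. With so few genes called in that contrast, a count of 0 says little about the relatives. The exact permutation test of affected females against control males gave p = 0.0286, the smallest it allows, for each of Gstm1, Gstm2, Gstm4 and Gstm5, or 0.05 after Benjamini-Hochberg adjustment over 7 tests.

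Compared per kilobase of the gene length given with the counts, the genes kept one order at the top in all groups. Gstm5 stood at 85.1, 97.6 and 84.5 CPM per kb in affected females, control males and control females, followed by Gstm1 at 8.88, 6.68 and 6.31 CPM per kb and Gstm4 at 6.14, 4.85 and 5.00 CPM per kb in the same groups. These 3 genes lay above Gstm6 in all 11 embryos. Gstm6 itself stood at 4.18 ± 1.04 CPM per kb in affected females and 3.33 ± 0.244 CPM per kb in control males, against 0.421 ± 0.214 CPM per kb in control females. Gstm2 stood at 3.42, 2.68 and 2.45 CPM per kb and Gstm7 at 0.670, 1.54 and 2.52 CPM per kb in those groups. Gstm6 thus lay above Gstm7 in 8 of 8 p53-/- embryos and in 0 of 3 p53+/+ embryos. Gstm6 and Gstm2 were not separated in the p53-/- embryos beyond their spread in affected females: Gstm6 was the higher in 3 of 4 affected females, 4 of 4 control males and 0 of 3 control females.

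Gstm6 remained a small share of the family's counts. Of the counts of the 6 genes together, Gstm6 took 4.76%, 3.08%, 5.27% and 4.53% in affected females 1 to 4 and 3.00%, 3.75%, 3.30% and 3.40% in control males 1 to 4, against 0.246%, 0.793% and 0.444% in control females 1 to 3. The shares of p53-/- and p53+/+ embryos did not overlap, which follows from how Gstm6 was picked and supports nothing. The summed level of the 5 relatives was 103.7 ± 3.73 CPM in affected females and 110.5 ± 5.45 CPM in control males, against 99.4 ± 5.80 CPM in control females. Relative to control females, Gstm6 differed by 4.33 CPM in affected females and 3.35 CPM in control males, and the sum of the relatives differed by 4.38 CPM and 11.1 CPM, upward in both. Gstm5 dominates that sum and itself differed by 0.536 CPM in affected females and 11.9 CPM in control males. Gstm7, which was lower, differed by -2.42 CPM in affected females and -1.28 CPM in control males.

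**Figure D4:**
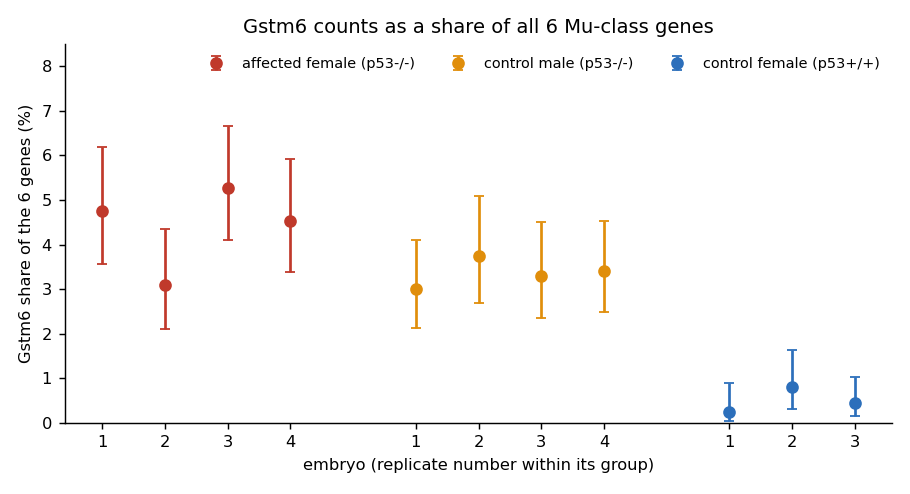
Gstm6 counts as a percent of the counts of the 6 Mu-class genes in each embryo, by replicate number within each of the 3 groups; bars are exact 95% binomial intervals, which cover counting error only. The p53-/- embryos lie between 3.00% and 5.27% and the p53+/+ embryos between 0.246% and 0.793%.

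Across the 11 embryos, the log2 CPM of Gstm6 had a Pearson correlation of 0.59 with Gstm1, 0.59 with Gstm2, 0.39 with Gstm4, 0.29 with Gstm5 and -0.61 with Gstm7. After each group's mean was removed, these were -0.05, -0.15, 0.45, -0.27 and 0.49, none of them above 0.5 in size. The tested genes whose level was most like that of Gstm6 over the same 11 embryos were Slfn10-ps (r = 0.95), Zfp799 (0.93), Ino80e (0.92), Zfp605 (0.92) and Pabpc1l2b (0.91), on chromosomes 11, 17, 7, 5 and X. After each group's mean was removed these were 0.58, 0.59, 0.27, 0.027 and 0.31, each lower than over all embryos, where the difference between groups on which Gstm6 was picked enters the value. None lay near the Mu-class cluster. Slfn10-ps had very low levels, at 0 to 0.106 CPM in control females and 0.376 to 1.55 CPM in p53-/- embryos. Choosing by Spearman's rank correlation gave 5 other genes, with 0 shared, so this list depends on the measure. Those 5 had Pearson correlations from 0.54 for Hgs to 0.86 for Zc3h4 after each group's mean was removed.

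No tested gene near the cluster was called higher with Gstm6. Of 17 genes within 300 kb of the cluster, 15 were tested. In affected females against control females 0 were called higher and 4 lower by edgeR and by DESeq2, with 1 higher and 7 lower at an unadjusted p under 0.05; of all tested genes 13.0% were called higher and 15.0% lower. The 4 were 4933431E20Rik, with a log2 fold change of -0.33 (SE 0.11), the AMP deaminase gene Ampd2 with -0.28 (SE 0.09), Cyb561d1 with -0.66 (SE 0.20) and the proteasome subunit gene Psma5 with -0.42 (SE 0.12), at edgeR adjusted p from 0.0183 to 0.0361. In control males against control females 0 were called by either tool, and 0 had an unadjusted p under 0.05. The median log2 fold change of the 15 genes was -0.28 in affected females and -0.07 in control males, each against control females, where the medians of all tested genes were -0.0049 and -0.00089. Affected females against control males gave 1 called lower by edgeR, Amigo1, at -0.29 on the log2 scale (SE 0.10, edgeR adjusted p = 0.0490), and 2 by DESeq2. In that contrast 0 were called higher by either, and 0 were higher and 7 lower at an unadjusted p under 0.05. The median of the 15 genes was -0.26 in it, against -0.018 for all tested genes. Of all tested genes, edgeR called 9.51% higher and 10.7% lower there. For the p53-/- mean 0 were called by either tool, with 0 higher and 3 lower at an unadjusted p under 0.05. EdgeR called 0.77% of all tested genes higher and 2.39% lower for that mean.

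**Figure D5:**
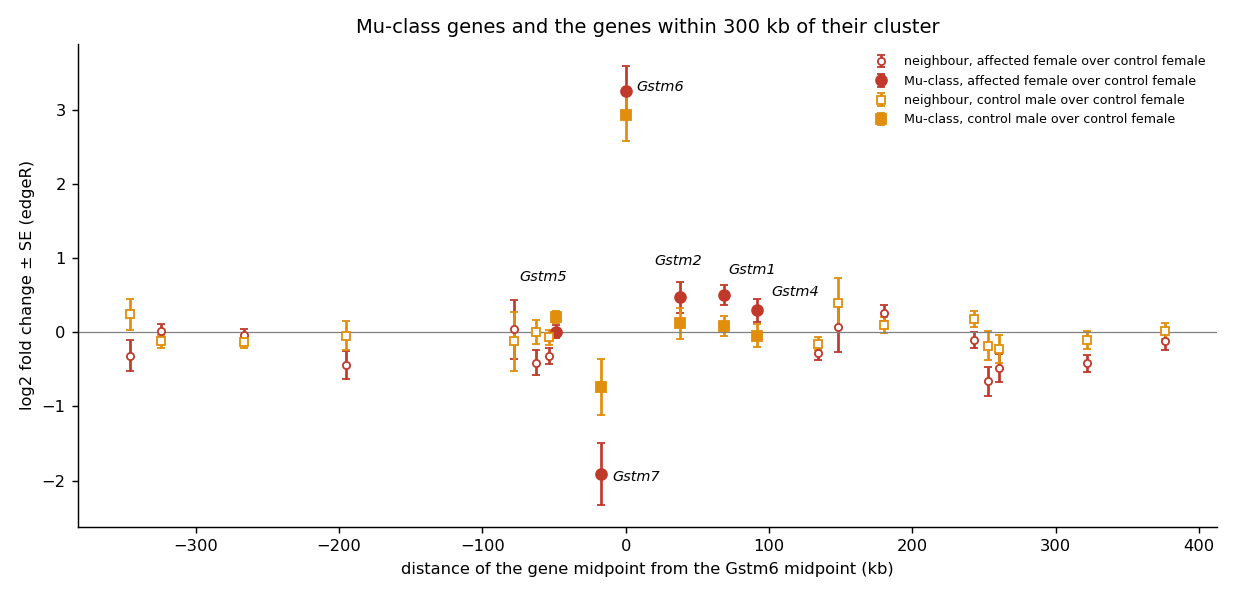
Log2 fold change ± SE from edgeR for the Mu-class genes (filled) and the other tested genes within 300 kb of their cluster (open), against the distance in kb of each gene's midpoint from the Gstm6 midpoint; circles are affected females and squares control males, each over control females. Gstm6 stands at 3.26 and 2.93, Gstm7 beside it lies at -1.91 and -0.74, and the called neighbours lie between -0.66 and -0.28 in affected females.

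The windows around the annotated starts are printed because Gstm6 and Gstm7, neighbours on the same strand, had different levels across the groups. RefSeq gave 12 such windows for the 7 genes, each running from 250 bases before the start to 50 bases after it, on GRCm38.p6. Shown here on the minus strand are the windows of the 2 upstream Gstm6 starts, at chr3:107953417-107953716 and chr3:107943685-107943984. The window of the downstream Gstm7 start, at chr3:107931565-107931864, is shown too. Capitals mark matches to the CCAAT box (CCAAT, or ATTGG on the other strand) and, in Gstm7, the core of the antioxidant response element bound by NRF2 (TGACNNNGC on either strand).

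Gstm6, first start: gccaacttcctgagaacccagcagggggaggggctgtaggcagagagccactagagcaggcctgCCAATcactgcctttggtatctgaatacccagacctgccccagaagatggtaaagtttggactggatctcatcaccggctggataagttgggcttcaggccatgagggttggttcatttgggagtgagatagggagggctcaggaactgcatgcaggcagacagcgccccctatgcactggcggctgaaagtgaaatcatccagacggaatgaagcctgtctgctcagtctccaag
Gstm6, second start: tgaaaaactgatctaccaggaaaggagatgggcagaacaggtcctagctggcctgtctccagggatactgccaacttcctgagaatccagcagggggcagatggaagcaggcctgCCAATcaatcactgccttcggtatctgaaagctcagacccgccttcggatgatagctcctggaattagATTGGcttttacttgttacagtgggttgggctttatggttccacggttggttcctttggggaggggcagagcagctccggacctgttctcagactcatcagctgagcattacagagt
Gstm7: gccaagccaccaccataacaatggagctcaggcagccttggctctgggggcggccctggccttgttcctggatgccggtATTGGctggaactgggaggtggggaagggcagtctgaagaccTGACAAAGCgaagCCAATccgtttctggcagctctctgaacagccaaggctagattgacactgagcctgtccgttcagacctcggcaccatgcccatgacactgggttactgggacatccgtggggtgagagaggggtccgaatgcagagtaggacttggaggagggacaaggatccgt

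The first Gstm6 window held 1 CCAAT match and the second held 2. Neither held the antioxidant response element core, a TATAAA match or a p53 half-site, searched on both strands. The third Gstm6 window held 1 CCAAT match and none of the other motifs. That match lies within the Gstm6 coding bases printed earlier. The upstream edge of the Gstm6 gene, at base 107953641, lies inside the first window. Sequence upstream of that edge was thus searched only in part. The printed Gstm7 window held 1 antioxidant response element core and 2 CCAAT matches. It lies wholly inside the Gstm7 gene, whose upstream edge is at base 107931877, and it includes the first coding bases of Gstm7. Its matches are thus not upstream of that edge. The upstream Gstm7 window, at chr3:107931768-107932067, is not printed. It held 2 CCAAT matches, 1 TATAAA match and no antioxidant response element core. Over all 12 windows, the antioxidant response element core was found in 1 window of Gstm7 and in the 1 window of Gstm5, and a p53 half-site in 0. Among 32851 RefSeq windows of the same length, 12.4% held the antioxidant response element core, 8.36% a p53 half-site, 37.4% a CCAAT box and 13.6% TATAAA, and 0 of the matches in the Mu-class windows overlapped another. Over 220 aligned bases the first and second Gstm6 windows were 71.8% identical, with a longest common run of 17 bases. These are letters in a window and show nothing about binding.

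Glutathione transferases outside the 6 genes went both ways in affected females. Of 23 listed genes, 22 were in the files and 12 were tested. In affected females against control females, 1 rose and 3 fell, where 13.0% of all tested genes were called higher and 15.0% lower, and the median log2 fold change was -0.32. Gsta4, whose enzyme conjugates lipid peroxidation products, rose by 0.64 on the log2 scale (SE 0.12, edgeR adjusted p = 0.00397), to 65.8 ± 6.23 CPM in affected females (SD, n = 4), against 42.2 ± 7.80 CPM in control females (SD, n = 3). Those that fell were the microsomal transferase gene Mgst1 (log2 fold change -0.52, edgeR adjusted p = 0.0157), the prostaglandin E synthase gene Ptges (-0.83, 0.0172) and the kappa-class gene Gstk1 (-0.74, 0.0239). Control males against control females gave 0 called by edgeR and by DESeq2, with 1 lower at an unadjusted p under 0.05. For the p53-/- mean against control females edgeR called 0 and DESeq2 called 1 lower, with 1 higher and 2 lower at an unadjusted p under 0.05. Affected females against control males gave 1 higher, Gsta4 with 0.61 (SE 0.11, edgeR adjusted p = 0.00825), and 1 lower, Gstk1 with -0.71 (SE 0.21, edgeR adjusted p = 0.0275). Of all tested genes, edgeR called 9.51% higher and 10.7% lower in that contrast.

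The genes that make, recycle and use glutathione went both ways in affected females. Of 30 listed genes 26 were tested, and against control females 3 rose and 4 fell, which is near the 13.0% and 15.0% of all tested genes called higher and lower, and the median log2 fold change was -0.07. The glutaredoxin gene Glrx rose by 0.54 (SE 0.12, edgeR adjusted p = 0.00738), the glutathione reductase gene Gsr by 0.43 (SE 0.11, edgeR adjusted p = 0.0145) and the glutathione synthetase gene Gss by 0.36 (SE 0.13, edgeR adjusted p = 0.0472). The genes that fell were Gpx8, a peroxidase of the endoplasmic reticulum (-0.86, edgeR adjusted p = 0.00406), Abcc5, an export pump (-0.57, 0.00964), Gpx4, which reduces lipid peroxides (-0.66, 0.0123), and Ggt7 (-0.74, 0.0480). Against control males 0 were called higher by edgeR, 1 by DESeq2 and 3 at an unadjusted p under 0.05, and 4 were called lower by edgeR. Of all tested genes, edgeR called 9.51% higher and 10.7% lower against control males. In control males against control females 0 were called by edgeR or DESeq2 and 0 had an unadjusted p under 0.05; for the p53-/- mean, edgeR called 0, DESeq2 called 1 in each direction, and 3 were higher and 3 lower at an unadjusted p under 0.05.

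In a list of known NRF2 target genes, which also holds Nfe2l2 and Keap1, the genes called in affected females went in 1 direction. Of 24 listed genes 22 were tested, 4 of which stand in the glutathione list too; against control females, where 13.0% of all tested genes were called higher and 15.0% lower, 6 rose and 0 fell, with 1 lower at an unadjusted p under 0.05 and 0 lower by DESeq2. Against control males, where those shares were 9.51% and 10.7%, 5 rose and 0 fell, with the same counts of lower genes by both other readings. G6pdx, an X-linked gene whose enzyme opens the pentose phosphate pathway, stood at 88.7 ± 7.10 CPM in affected females (SD, n = 4) and 56.4 ± 10.8 CPM in control males (SD, n = 4), against 55.3 ± 4.88 CPM in control females (SD, n = 3), a log2 fold change of 0.68 against control females (SE 0.13, edgeR adjusted p = 0.00369). Pgd, Tkt and Taldo1, of the same pathway, rose by 0.50, 0.48 and 0.41, Ugdh by 0.49 and the thioredoxin reductase gene Txnrd1 by 0.37. The genes of the list not called against control females went both ways, from -0.36 for Nqo1 to 0.39 for Gclm. Slc7a11 stood at -0.18, Hmox1 at -0.05 and Gclc at 0.04. The median of the 22 genes was 0.12 against control females and 0.13 against control males, against medians of all tested genes of -0.0049 and -0.018. In control males against control females 0 were called by either tool and 0 had an unadjusted p under 0.05. For the p53-/- mean edgeR and DESeq2 called 0, with 7 higher at an unadjusted p under 0.05.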

How the data were processed

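Polyadenylated RNA of 11 embryo brains was sequenced per the labels' protocols. The authors deposited raw counts per Entrez gene with a gene length, counted with featureCounts on mm10 according to the submitters' processing notes. No source used here gives the aligner, versions, strand or multi-mapping settings. Totals were 8211942 to 11218682 counts, and low counts limit precision for Gstm6 in control females, Gstm7 and Gstm3. Within groups, chi-square per degree of freedom between library pairs was 2.73 to 31.6, so no library was taken for a duplicate.

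Genes were kept by filterByExpr (14542, including all 6 described here), scaled by TMM and fitted with edgeR 4.0.16 in R 4.3.3 by quasi-likelihood over all 11 libraries, with group as the only factor and a Benjamini-Hochberg threshold of 0.05. An SE is the log2 fold change divided by the square root of F. Log2 CPM used a prior count of 2. Single genes were compared between p53-/- groups by two-sided exact permutation. Alternatives included DESeq2 1.42.0, other scalings and filters, the replicate number as a block and leaving out each library. The procedure was tested on simulated data. Coordinates, symbols and start windows came from RefSeq (GRCm38.p6) and transcripts from GENCODE vM21. Coding bases were aligned with Biopython 1.88, in place of the proteins planned. Named genes were the 6 members, Gstm3, called genes within 300 kb, the 5 genes most correlated with Gstm6, and up to 4 per list by smallest adjusted p. Gsr, Gss, Ggt7, Taldo1, Txnrd1 and the uncalled genes of the NRF2 list were named after their values were seen. The members and lists were chosen with earlier results of these data known.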

Additional observations from a re-analysis of the deposited data

Results flagged for a closer look

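Within groups of 4 embryos, 1 embryo stood far from the other 3 in 2 of 14 groups examined, where chance gives about 1 in 20. Gstm1 in control males had its lowest value, 7.71 CPM in replicate 1, well below the other 3 control males at 8.89 to 9.00 CPM. Gstm4 in affected females had its highest value, 12.8 CPM in replicate 3, well above the other 3 affected females at 9.37 to 9.49 CPM.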

How the results depend on the processing

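The log2 fold change of Gstm6 against control females stayed between 3.00 and 3.66 for affected females, 2.63 and 3.33 for control males, and 2.82 and 3.50 for the p53-/- mean over all settings run; the highest values came without control female 2, and leaving out 1 library at a time gave 3.00 to 3.66, 2.67 to 3.33 and 2.83 to 3.50. The counts of called genes moved more. Leaving out 1 library at a time, they ran from 1663 to 4957 (4073 with all libraries) for affected females against control females, from 18 to 35 (21) for control males against control females, from 361 to 5140 (2940) for affected females against control males and from 45 to 2275 (460) for the p53-/- mean against control females. DESeq2 called 43 genes for control males against control females and 1006 for the p53-/- mean, where dropping the expression filter gave 939. Without control female 1 and control male 4 together, an alternative added after seeing the data, 6014 genes were called for affected females against control males and 1326 for the p53-/- mean. The cause of these shifts was not tested.

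With the replicate number as a block, 175 genes were called for the p53-/- mean, and Gstm7 lost its call there (adjusted p = 0.101). The numbers did not pair the embryos: same-numbered embryos of different groups had correlations of their deviations from -0.136 to 0.178, and embryos correlated best with their own number in 2 of 20 library and group pairs. The fit of only the groups compared does not exist for the p53-/- mean.

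Signs turned only for small differences. Gstm5 in affected females against control females, 0.01 with all libraries, was -0.0051 with only the groups compared and ran from -0.044 to 0.042 on leaving out 1 library. Gstm4 in control males against control females ran from -0.10 to 0.030. Of the single-gene values under the alternatives, without those of Gstm6 against control females, 18 lost and 7 gained a call. A further 343 kept call and sign, and the 5 that changed sign were those of Gstm5 and Gstm4 just given. The Gstm6 values against control females carry no test, and their ranges are given above. Low counts limit Gstm6 in control females, Gstm7 and Gstm3.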
